A study of Saccharomyces cerevisiae with 9 samples.

Results

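The methyl cycle and transsulfuration enzymes of budding yeast were followed as 9 genes, chosen by name from the gene symbols of the deposited table: MET13, MET6, SAM1, SAM2, SAH1, ADO1, CYS4, CYS3 and STR2. All 9 were found among the 7122 genes of the table, and all 9 passed the filter on low counts that left 6150 genes for testing. RNA came from Saccharomyces cerevisiae of the CEN.P.K prototrophic strain in 3 genotypes, with 3 libraries each: a strain lacking PAH1 (pah1Δ), a strain lacking DGK1 (dgk1Δ) and the wild type (WT). All strains were grown to log phase in minimal synthetic medium with 2% glucose, with no other treatment, and poly(A) RNA was sequenced. The product of PAH1 removes phosphate from phosphatidate to give diacylglycerol, and the product of DGK1 is a kinase for the reverse step, so the strains lack opposite steps of phosphatidate metabolism. The labels do not say how the deletions were made or whether each strain was 1 clone, and they do not say that replicates were separate cultures, so the p-values cover the spread among these libraries only, and that spread may be technical.

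As background, cells make phosphatidylcholine by adding methyl groups to phosphatidylethanolamine, and each methyl group comes from S-adenosylmethionine. In the methyl cycle a reduced folate gives its methyl group to homocysteine, the methionine formed is joined to the adenosyl part of ATP, and the S-adenosylhomocysteine left after methyl transfer is split back to homocysteine and adenosine. In yeast the transsulfuration enzymes carry sulfur between homocysteine and cysteine in both directions. Phosphatidylcholine synthesis is a large user of methyl groups in yeast.

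Each library held 9205454 to 12795803 counts over genes. The deleted PAH1 was at 0 counts throughout pah1Δ, with 507 to 722 in dgk1Δ and 454 to 535 in WT. The deleted DGK1 was at 1 or 2 counts in dgk1Δ, with 1038 to 1267 in pah1Δ and 1030 to 1502 in WT, so both deletions matched their labels. WT replicate 1 stood apart: its chi-square per degree of freedom was 53.6 and 39.9 against the other WT libraries, and 3.55 between those libraries. Replicate 2 of pah1Δ also stood apart in its group, at 12.9 and 24.1, against 5.96 between replicates 1 and 3. Within dgk1Δ the values were 4.97 to 7.07. In WT replicate 1 and pah1Δ replicate 2 the log2 deviation from the other libraries of the group was lower for longer genes (Spearman correlation -0.605 and -0.565 over the 6150 genes), while in the others it lay between -0.313 and 0.543. In dgk1Δ against WT, the 60 tested genes of the left arm of chromosome III had a median log2 fold change of 0.89 and the 45 of the right arm of chromosome IX one of 0.93, against 0.01 over all genes. None of the 9 genes lies on these chromosomes, but differences of dgk1Δ from WT and the raised RNA of these arms cannot be told apart.

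The 9 genes are spread over 6 chromosomes of build R64. MET13 (YGL125W) lies at chrVII:272520-274322 on the plus strand and MET6 (YER091C) at chrV:339864-342167 on the minus strand. SAM1 (YLR180W) lies at chrXII:515262-516410 (plus) and SAM2 (YDR502C) at chrIV:1453310-1454464 (minus). SAH1 (YER043C) lies at chrV:235770-237119 (minus) and ADO1 (YJR105W) at chrX:623581-624603 (plus). Of the transsulfuration genes, CYS4 (YGR155W) lies at chrVII:798543-800066 (plus), CYS3 (YAL012W) at chrI:130799-131983 (plus) and STR2 (YJR130C) at chrX:665218-667137 (minus). The start and end of each gene in the deposited table were those of the RefSeq annotation.

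The 2 S-adenosylmethionine synthetase genes are paralogs, so their sequences are shown first, because counts of one gene could hold reads of the other. Their coding regions in the RefSeq genome (build R64, the build named in the submitters' processing notes) were 83.2% identical over 1149 aligned bases, with a longest identical run of 59 bases. Of the 50-base words of SAM2, 1.81% also occurred in SAM1, and none of its 100-base words did. No 50-base word of the other 7 genes occurred in another coding region, and none of the 9 genes overlapped another gene of the table. The stretch of 120 aligned bases with the most differences is chrIV:1453790-1453909 on the minus strand for SAM2 (coding bases 556 to 675) and chrXII:515811-515930 on the plus strand for SAM1 (coding bases 550 to 669), and capitals mark the 34 bases that differ.
SAM2: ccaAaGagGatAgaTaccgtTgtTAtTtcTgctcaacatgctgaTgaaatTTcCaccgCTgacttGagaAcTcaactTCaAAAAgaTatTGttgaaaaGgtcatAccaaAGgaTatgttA
SAM1: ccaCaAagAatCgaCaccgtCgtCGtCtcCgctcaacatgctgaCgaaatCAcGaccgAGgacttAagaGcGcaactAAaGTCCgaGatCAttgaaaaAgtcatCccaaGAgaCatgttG

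The stretches upstream of the 3 genes that changed in pah1Δ (SAM2, SAH1 and CYS4) are shown. That of CYS3, which did not pass the test but holds matches to 2 of the motifs searched, is shown for comparison. The stretch runs from 300 to 101 bases before the start codon, read 5′ to 3′ on the gene's strand, at chrIV:1454565-1454764 (minus), chrV:237220-237419 (minus), chrVII:798243-798442 (plus) and chrI:130499-130698 (plus). Capitals mark 4 motifs searched on both strands: CACGTG, bound by Cbf1; TGTGGC, the core of the site of Met31 and Met32; TGACTC, the core of the Gcn4 site; and CATGTG, the core of the inositol-responsive element.
SAM2: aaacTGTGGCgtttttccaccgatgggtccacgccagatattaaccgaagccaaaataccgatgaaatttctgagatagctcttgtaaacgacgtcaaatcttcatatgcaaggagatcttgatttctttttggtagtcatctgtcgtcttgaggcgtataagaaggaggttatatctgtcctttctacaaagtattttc
SAH1: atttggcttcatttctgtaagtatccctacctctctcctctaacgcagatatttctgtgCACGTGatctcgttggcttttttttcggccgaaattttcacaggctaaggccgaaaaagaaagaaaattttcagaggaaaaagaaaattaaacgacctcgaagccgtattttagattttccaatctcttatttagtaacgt
CYS4: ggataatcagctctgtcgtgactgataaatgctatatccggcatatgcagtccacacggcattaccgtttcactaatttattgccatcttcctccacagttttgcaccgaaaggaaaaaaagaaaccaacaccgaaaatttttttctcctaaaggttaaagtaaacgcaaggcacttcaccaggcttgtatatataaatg
CYS3: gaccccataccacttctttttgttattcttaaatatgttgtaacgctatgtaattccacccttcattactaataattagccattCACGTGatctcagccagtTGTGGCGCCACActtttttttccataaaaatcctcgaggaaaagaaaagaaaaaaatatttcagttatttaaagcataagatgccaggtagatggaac
Within the 300 bases before the start codon, CACGTG stood before CYS3 and SAH1 (2 of the 9 genes, against 3.56% of 6007 promoters). TGTGGC stood before CYS3, SAM2 and MET13 (3 of 9, against 8.09%), TGACTC before MET13 (1 of 9, against 7.76%) and CATGTG before ADO1 and STR2 (2 of 9, against 7.14%). No motif overlapped another. Before CYS3 a CACGTG at 216 to 211 bases was followed by TGTGGC at 198 to 193 bases and its reverse complement at 192 to 187 bases. These exact letters were not found in the windows of SAM1, CYS4 and MET6, and other forms of the sites were not searched. A match describes these letters and does not show that a factor binds there.

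Levels differed widely among the 9 genes. In CPM (counts scaled to the size of the library) per kilobase of gene, MET6 and SAM2 were the most abundant, with 3576 ± 412 and 3660 ± 29.7 in pah1Δ, 3013 ± 58.9 and 2272 ± 326 in dgk1Δ, and 3274 ± 537 and 2761 ± 310 in WT (SD, n = 3). SAM2 ranked 25th of 6150 tested genes per kilobase in pah1Δ, 108th in dgk1Δ and 80th in WT. Only SAM2 and MET6 changed places between the groups, with SAM2 above MET6 in pah1Δ by less than the spread between libraries. SAH1 followed with 2140 ± 135 CPM per kilobase in pah1Δ, 1590 ± 105 in dgk1Δ and 1712 ± 48.8 in WT, and SAM1 with 1046 ± 135, 902 ± 29.0 and 1129 ± 54.9 in the same groups. Below them came ADO1, CYS4, CYS3 and MET13, whose WT means were 680 ± 82.6, 550.3 ± 16.2, 357 ± 30.2 and 244 ± 62.3 CPM per kilobase. STR2 was lowest, with 50.6 ± 1.64 in pah1Δ, 44.7 ± 0.953 in dgk1Δ and 44.4 ± 0.951 in WT. In the order of WT levels, the library ranges of the neighbours MET6 and SAM2 overlapped, and those of the other neighbours did not. Together the 9 genes held 1.82% to 2.11% of all raw counts in pah1Δ, 1.44% to 1.56% in dgk1Δ and 1.39% to 1.81% in WT. Their sums in CPM, which is TMM-scaled, were 17554 to 20618 in pah1Δ, 14670 to 15664 in dgk1Δ and 14955 to 18277 in WT. On that scale pah1Δ and WT overlapped.

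In pah1Δ against WT, SAM2 and SAH1 rose and CYS4 fell, and the other 6 genes did not pass the test. The changes were small, with log2 fold changes of 0.41, 0.32 and -0.28. Over all genes tested, 16.6% were called higher and 12.6% lower in this comparison (29.2% in either direction), so 2 of 9 higher and 1 of 9 lower is near the background and says nothing particular about the 9 genes as a list. The libraries did not overlap for 3 genes that were higher in pah1Δ (SAM2, SAH1 and STR2, where 22.0% of all genes did so) and 1 that was lower (CYS4, where 17.4% did so). The median log2 fold change of the 9 genes was 0.13, against 0.00 over all genes, and it was 0.03 without pah1Δ replicate 3, 0.04 without WT replicate 1 and 0.20 without WT replicate 3. Scaling by library size alone turned the calls over all genes from 1023 higher and 775 lower into 1343 higher and 480 lower.

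**Figure D1:**
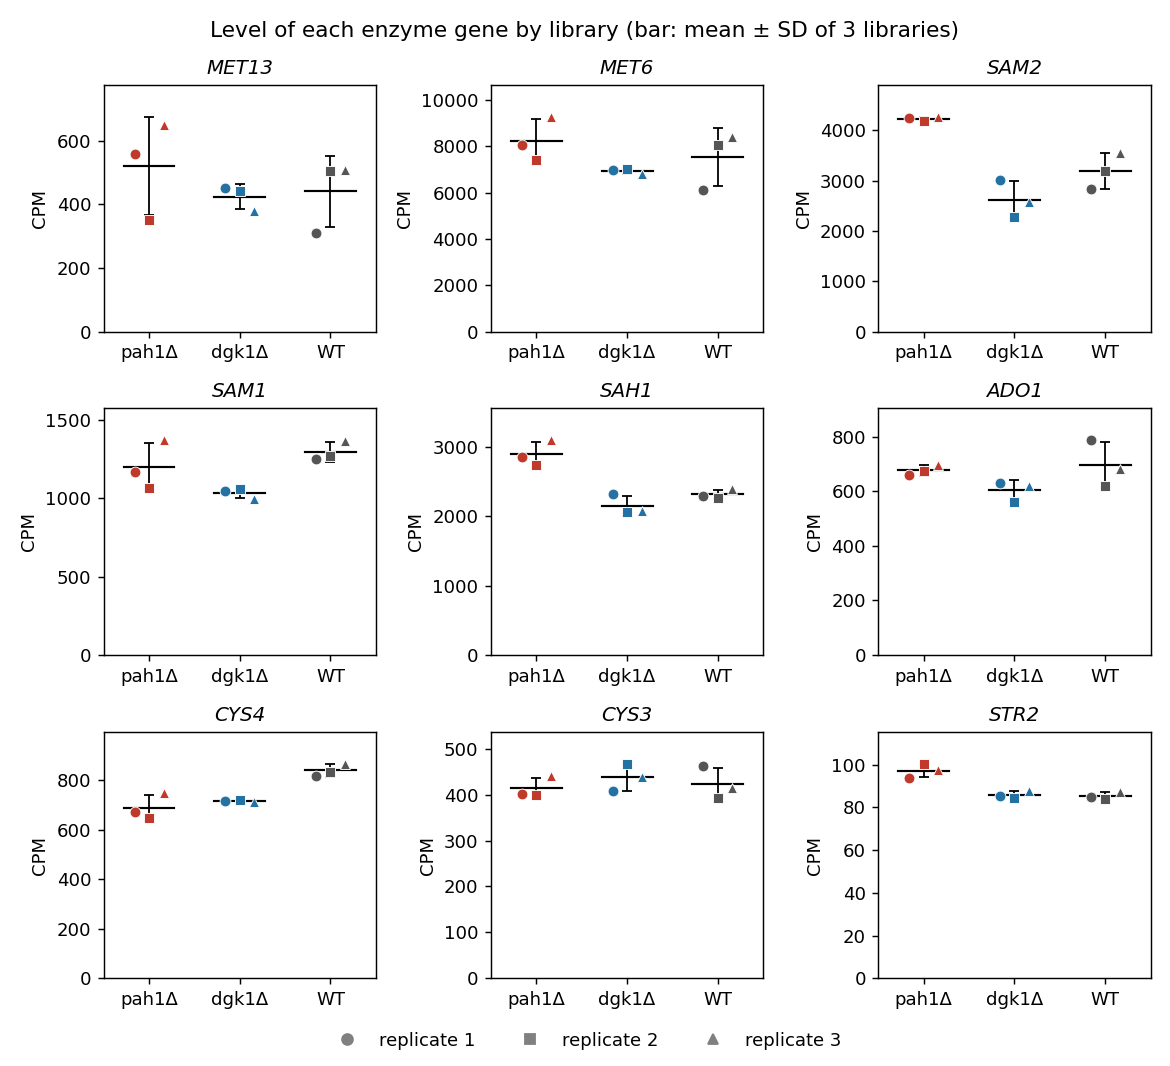
Level of each of the 9 enzyme genes in CPM (vertical axes, starting at 0) in the 3 libraries of pah1Δ, dgk1Δ and WT; symbols are replicates 1 to 3, bars the mean and whiskers the SD. SAM2, SAH1 and STR2 lie higher in every pah1Δ library than in every WT library, CYS4 lies lower, and MET13 and MET6 are low in WT replicate 1 and pah1Δ replicate 2.

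MET13, the methylenetetrahydrofolate reductase that makes the methyl folate, had 559, 350 and 650.2 CPM in pah1Δ replicates 1 to 3, 452, 441 and 379 in dgk1Δ, and 311, 504 and 506 in WT. MET6, the cobalamin-independent methionine synthase that passes this methyl group to homocysteine, had 8054, 7397 and 9269 CPM in pah1Δ, 6994, 7045 and 6789 in dgk1Δ, and 6129, 8080 and 8423 in WT. Both genes were lowest within their groups in pah1Δ replicate 2, dgk1Δ replicate 3 and WT replicate 1, the library of each group with the most negative correlation of deviation with gene length (-0.565, -0.313 and -0.605), and their ranges in pah1Δ and WT overlapped. The log2 fold change of MET13 in pah1Δ over WT was 0.24 (SE 0.226, edgeR adjusted p = 0.471) and that of MET6 was 0.13 (SE 0.131, adjusted p = 0.509). Without WT replicate 1 these values were 0.04 and 0.00, and with the length trend removed 0.21 and 0.13. The shorter SAM1 (1149 bases) and CYS4 (1524 bases) were lowest in the same libraries as MET13 (1803 bases) and MET6 (2304 bases). STR2 (1920 bases) was instead highest within its group in pah1Δ replicate 2 and dgk1Δ replicate 3 (100.1 and 87.9 CPM). The part of gene length in the values of MET13 and MET6 was otherwise not tested.

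SAM2, which encodes one of the isozymes that make S-adenosylmethionine, had 4235, 4191 and 4258 CPM in pah1Δ, 3020, 2270 and 2581 in dgk1Δ, and 2828, 3197 and 3543 in WT. Every pah1Δ library was above every dgk1Δ and WT library, while dgk1Δ and WT overlapped. The pah1Δ libraries lay close together, with a coefficient of variation of 0.812%, against 14.3% in dgk1Δ and 11.2% in WT. Over WT, SAM2 rose in pah1Δ by 0.41 on the log2 scale (SE 0.118, edgeR adjusted p = 0.0249). The call was lost in 5 of 20 alternatives, 4 of them without pah1Δ replicate 1, 2 or 3 or WT replicate 2 (adjusted p = 0.0755, 0.0519, 0.0621 and 0.0502), with log2 fold changes of 0.401 to 0.413, and over all 20 the adjusted p ranged from 0.00368 to 0.0755.

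SAM1, which encodes the other isozyme, had 1167, 1067 and 1370 CPM in pah1Δ, 1048, 1062 and 999 in dgk1Δ, and 1251, 1272 and 1369 in WT. Its pah1Δ and WT libraries overlapped, and each dgk1Δ library was below each WT library. The log2 fold change in pah1Δ against WT was -0.11 (SE 0.0973, edgeR adjusted p = 0.433). The synthetase genes are nearly equal in length (1155 and 1149 bases). With the length trend removed, the log2 fold changes in pah1Δ against WT were 0.37 for SAM2 and -0.15 for SAM1. The part of other differences between libraries in their ratio was not tested. Per base, SAM2 gave 78.3%, 79.6% and 75.6% of the counts of both genes in pah1Δ, 74.1%, 68.0% and 72.0% in dgk1Δ, and 69.2%, 71.4% and 72.0% in WT. The mean share was 77.8% ± 2.08 in pah1Δ, 71.4% ± 3.1 in dgk1Δ and 70.9% ± 1.48 in WT (SD, n = 3). The pah1Δ libraries lay above all others, by 6.94 percentage points over WT and 6.44 over dgk1Δ on average. A two-sided exact permutation test gave p = 0.1 for both differences, the smallest that 3 against 3 allows (adjusted over the 3 contrasts 0.15). For dgk1Δ against WT the difference was 0.499 points (exact p = 0.9), and it changed sign without dgk1Δ replicate 1 (-0.874) or WT replicate 1 (-0.336).

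**Figure D2:**
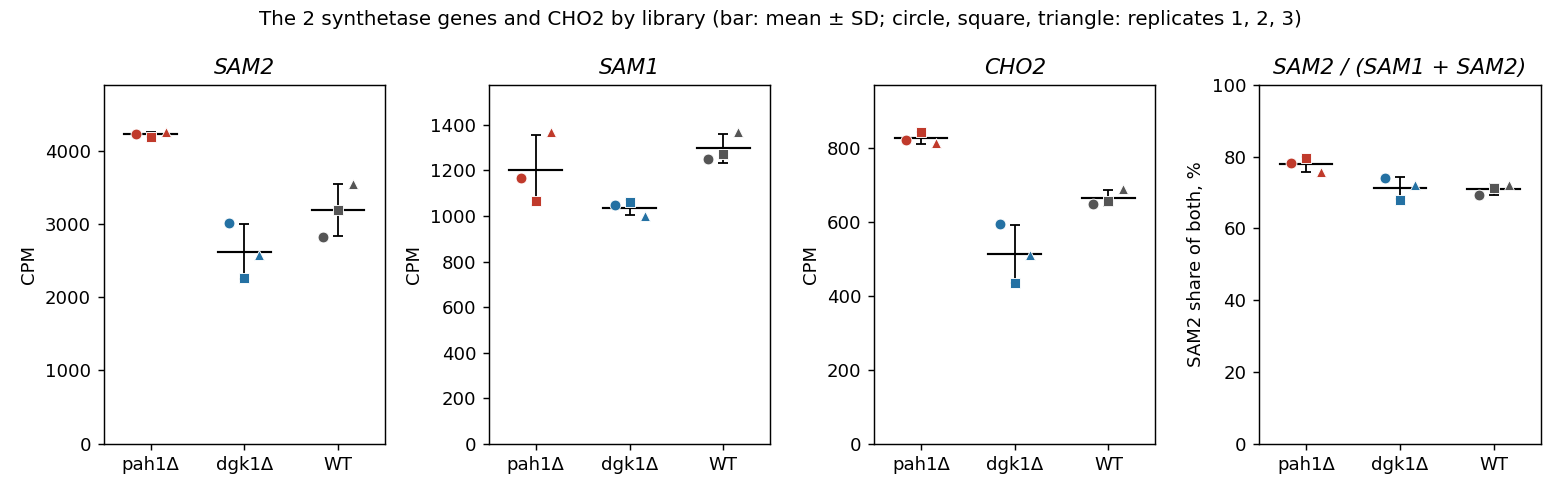
SAM2, SAM1 and the methyltransferase gene CHO2 in CPM, and the SAM2 share of both synthetase genes in percent (last panel), in each library of pah1Δ, dgk1Δ and WT; bars are means and whiskers SDs of 3 libraries. The share is 75.6% to 79.6% in pah1Δ, 68.0% to 74.1% in dgk1Δ and 69.2% to 72.0% in WT. The means of SAM2 and CHO2 share the order of the 3 groups, as do those of MET6, MET13, SAH1 and OPI3 among others. For SAM2 the dgk1Δ and WT libraries overlap.

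SAH1, the hydrolase that splits S-adenosylhomocysteine, the product of every methyl transfer, had 2848, 2731 and 3088 CPM in pah1Δ, 2311, 2063 and 2067 in dgk1Δ, and 2286, 2261 and 2385 in WT. All pah1Δ libraries were above all WT and dgk1Δ libraries. Over WT, SAH1 rose in pah1Δ by 0.32 on the log2 scale (SE 0.0858, edgeR adjusted p = 0.0163). The call was lost without pah1Δ replicate 1 (adjusted p = 0.0521) or 3 (0.0597) and with the 2 groups alone in the fit (0.0535), and the adjusted p ranged from 0.000555 to 0.0597 over the alternatives. ADO1, the adenosine kinase that removes the other product of that hydrolysis, had 658, 674 and 697 CPM in pah1Δ, 632, 559.7 and 618 in dgk1Δ, and 786, 618 and 683 in WT, with overlapping groups. Its log2 fold change was -0.04 (SE 0.0945, edgeR adjusted p = 0.783), and its sign turned without WT replicate 1 (0.06).

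CYS4, the cystathionine beta-synthase that commits homocysteine to cysteine synthesis, had 672, 647 and 747 CPM in pah1Δ, 714, 719 and 710.3 in dgk1Δ, and 817, 834 and 865 in WT. Every pah1Δ and every dgk1Δ library was below every WT library. CYS4 fell in pah1Δ relative to WT (log2 fold change -0.28, SE 0.0753, edgeR adjusted p = 0.0159). Under scaling by library size alone it was -0.20 (adjusted p = 0.0738), and the call was also lost on deposited FPKM (0.0702 and 0.0705), with the 2 groups alone (0.0647), without pah1Δ replicate 1 (0.071) and without WT replicate 3 (0.0649). CYS3, the cystathionine gamma-lyase that completes that route, had 402, 399 and 440.0 CPM in pah1Δ, 409, 467 and 438 in dgk1Δ, and 462, 392 and 415 in WT. The groups overlapped, and the log2 fold change in pah1Δ against WT was -0.03 (SE 0.0846, edgeR adjusted p = 0.81). STR2, the cystathionine gamma-synthase of the route from cysteine back to homocysteine, had 93.8, 100.1 and 97.6 CPM in pah1Δ, 85.4, 84.3 and 87.9 in dgk1Δ, and 84.7, 83.9 and 87.4 in WT. All pah1Δ libraries were above all others, yet STR2 did not pass (0.19 on the log2 scale with SE 0.0689; edgeR adjusted p = 0.0636). It did pass under library size alone (0.0178), on FPKM (0.0177 and 0.018) and with genes of a mean CPM of at least 10 (0.041).

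In dgk1Δ against WT, 0 of the 9 genes passed edgeR's test, where 1.92% of all genes did (1.64% higher and 0.276% lower). The libraries did not overlap for SAM1 and CYS4, both lower in dgk1Δ, and for 0 genes higher, where 7.19% of all genes were lower and 9.15% higher without overlap. At an unadjusted p under 0.05 there were 3, all lower in dgk1Δ: SAM1 (log2 fold change -0.32, SE 0.0974, adjusted p = 0.226), CYS4 (-0.23, SE 0.0753, adjusted p = 0.291) and SAM2 (-0.28, SE 0.118, adjusted p = 0.501). DESeq2 called 2 genes lower, SAM1 (adjusted p = 0.0243) and CYS4 (0.0207), limma-voom called 0, and edgeR with the length trend removed called CYS4 (0.0379). ADO1 was at -0.21 (SE 0.0945), MET6 at -0.12 (SE 0.131), SAH1 at -0.11 (SE 0.0857), MET13 at -0.06 (SE 0.226), STR2 at 0.01 (SE 0.0691) and CYS3 at 0.05 (SE 0.0846). The median of the 9 genes was -0.12, against 0.01 over all genes, and -0.25 without WT replicate 1.

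In pah1Δ directly against dgk1Δ, SAM2 and SAH1 were called higher and 0 genes lower, where 14.2% of all genes were called higher and 10.8% lower (25.1% in either direction). Scaling by library size alone turned the 876 higher and 666 lower calls over all genes into 1081 and 437. Without overlap of libraries, 6 of 9 were higher (MET6, SAM1, SAM2, SAH1, ADO1 and STR2) and 0 lower, where 25.2% of all genes were higher and 23.4% lower. SAM2 was higher by 0.69 (SE 0.119, edgeR adjusted p = 0.00173) and SAH1 by 0.43 (SE 0.0859, adjusted p = 0.00429). Both were called under all 20 alternatives, with adjusted p up to 0.0109 and 0.0297. The sizes of the remaining differences were 0.29 for MET13 (SE 0.226), 0.25 for MET6 (SE 0.131), 0.21 for SAM1 (SE 0.0973), 0.18 for STR2 (SE 0.0688), 0.17 for ADO1 (SE 0.0945), -0.05 for CYS4 (SE 0.0753) and -0.08 for CYS3 (SE 0.0846), none of which passed. MET6 passed with the length trend removed (adjusted p = 0.00874), without WT replicate 1 (0.0283) and with the 2 groups alone (0.0484), and STR2 passed under library size alone (0.036), on FPKM (0.0353 and 0.0358) and without WT replicate 1 (0.0379).

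**Figure D3:**
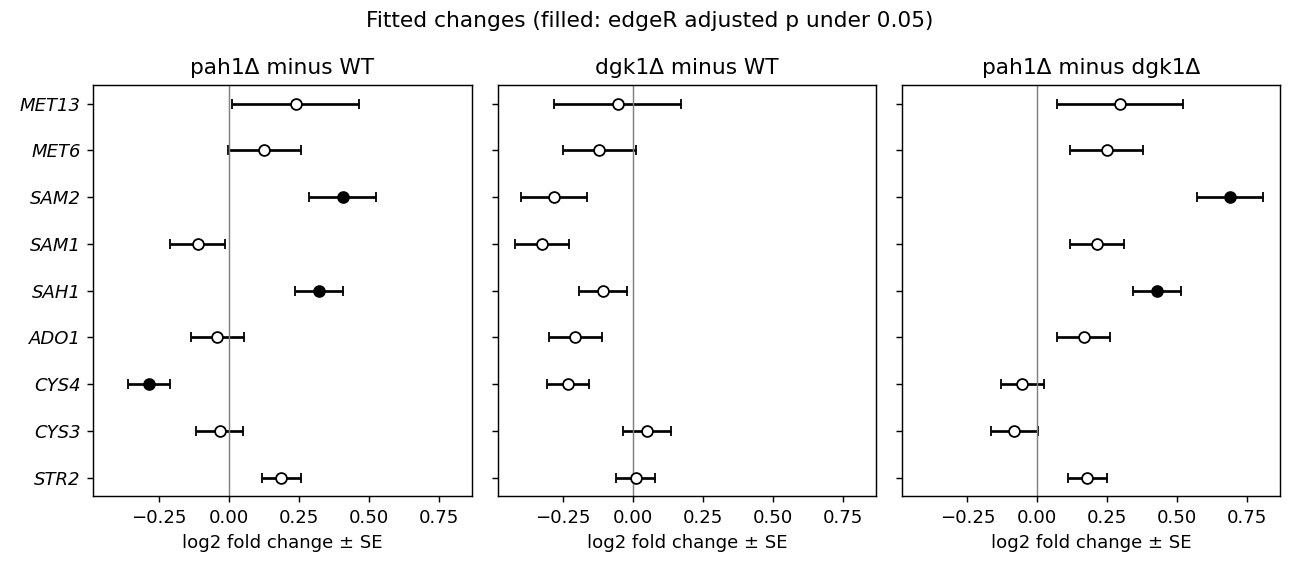
Log2 fold changes (horizontal axis, points with ± SE) of the 9 genes in the 3 comparisons; filled points passed edgeR's test over all genes at an adjusted p under 0.05. SAM2 (0.41 and 0.69) and SAH1 (0.32 and 0.43) are filled in both comparisons of pah1Δ, CYS4 (-0.28) against WT, and no point is filled in dgk1Δ minus WT.

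The genes that use methyl groups in lipid synthesis were set beside the cycle. Of 3 listed genes 2 rose and 0 fell in pah1Δ relative to WT, where 16.6% of all genes were called higher: OPI3, which adds the later methyl groups of phosphatidylcholine, by 1.05 (SE 0.216, edgeR adjusted p = 0.00448) and CHO2, which adds the first, by 0.31 (SE 0.102, adjusted p = 0.0407). The sterol methyltransferase ERG6 was at 0.15 (adjusted p = 0.187). It was called higher in 4 of 20 alternatives (library size alone, both FPKM scales and without WT replicate 1), with adjusted p down to 0.0216. The call of CHO2 was lost in 8 of 20 alternatives, 6 of them leaving out 1 library (each pah1Δ library, dgk1Δ replicate 3, WT replicates 2 and 3), with adjusted p up to 0.103. CHO2 had 823, 845 and 815 CPM in pah1Δ, 594, 436 and 512 in dgk1Δ, and 649, 659 and 691 in WT, so the pah1Δ libraries were highest and the dgk1Δ libraries lowest without overlap. In pah1Δ against dgk1Δ CHO2 was higher by 0.69 (SE 0.103, adjusted p = 0.000673), the same size as SAM2, and OPI3 by 1.57 (SE 0.219, adjusted p = 0.000436). Between dgk1Δ and WT 0 of 3 passed edgeR's test, where 1.92% of all genes did. At an unadjusted p under 0.05 there were 2, and DESeq2 called 1.

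Genes of sulfate assimilation and homocysteine synthesis, which feed the cycle, moved the other way from SAM2 and SAH1 in pah1Δ. Of 12 listed genes 9 fell and 0 rose against WT, where 12.6% of all genes were called lower and 16.6% higher. Their median log2 fold change was -0.45, against 0.00 over all genes. MET16, the reductase of activated sulfate, fell (log2 fold change -0.65, SE 0.07, edgeR adjusted p = 6.31e-05), with 198, 213 and 197 CPM in pah1Δ, 289, 319 and 324 in dgk1Δ, and 327, 308 and 320 in WT. MET1, of siroheme synthesis (-0.54), the adenylylsulfate kinase MET14 (-0.49) and the aspartate semialdehyde dehydrogenase HOM2 (-0.41) fell as well, and their calls held in all 20 alternatives. The sulfite reductase subunits MET5 and MET10, the ATP sulfurylase MET3, the aspartate kinase HOM3 and the sulfhydrylase MET17 also fell, with log2 fold changes of -0.74 to -0.27, and MET8 (-0.36), HOM6 (-0.17) and MET2 (-0.10) did not pass. The calls of MET5, MET10 and MET3 also held in all 20 alternatives. HOM3 lost its call in 4 of them (adjusted p up to 0.06) and MET17 in 13, and the count of fallen genes ranged from 7 to 11. Between dgk1Δ and WT 0 of 12 passed edgeR's test (1 at an unadjusted p under 0.05, 0 with DESeq2), where 1.92% of all genes passed. The median of the 12 was -0.03. In pah1Δ against dgk1Δ 7 of 12 were lower and 0 higher, where 10.8% of all genes were called lower and 14.2% higher.

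Genes of uptake and recycling were lower in dgk1Δ. Of 6 listed genes 4 fell and 0 rose relative to WT, where 0.276% of all genes were called lower and 1.64% higher, and 4 were called in each of the 20 alternatives as well. MUP1, the high-affinity methionine permease, had a log2 fold change of -1.41 (SE 0.103, edgeR adjusted p = 2.38e-05), the S-adenosylmethionine permease SAM3 one of -1.13, the methyltransferase MHT1 one of -0.75 and the S-methylmethionine permease MMP1 one of -0.69. MUP1 had 289, 235 and 321 CPM in pah1Δ, 133, 131 and 122 in dgk1Δ, and 338, 342 and 345 in WT, so no groups overlapped. Of the same 6 genes, 3 fell and 0 rose in pah1Δ, where 12.6% of all genes were called lower: SAM3 (-0.58), the homocysteine methyltransferase SAM4 (-0.58) and MMP1 (-0.33). MMP1 lost its call on both FPKM scales (adjusted p up to 0.0568), and MUP1, at -0.28, did not pass (edgeR adjusted p = 0.058) but was called lower in 5 of 20 alternatives. Directly compared, 4 were higher in pah1Δ than in dgk1Δ (MUP1 by 1.13) and SAM4 was lower (-0.66). In that comparison 14.2% of all genes were called higher and 10.8% lower. Both lyase genes fell in dgk1Δ, also in each of the 20 alternatives: STR3, the cystathionine beta-lyase that follows STR2 (log2 fold change -0.72, SE 0.11, adjusted p = 0.0037) and the related IRC7 (-0.52, SE 0.0721, adjusted p = 0.00177). In pah1Δ they were at 0.13 and 0.12 and did not pass against WT (0 of 2, and 0 with DESeq2 or at an unadjusted p under 0.05). IRC7 was however called higher on both FPKM scales (limma adjusted p down to 0.0425). Its pah1Δ libraries all lay above its WT libraries, where 22.0% of all genes did so. Against dgk1Δ both genes were higher in pah1Δ, by 0.85 and 0.64 (edgeR adjusted p = 0.000248 and 9.64e-05). STR3 had 85.0, 80.8 and 87.3 CPM in pah1Δ, 43.3, 49.5 and 47.6 in dgk1Δ, and 64.8, 80.9 and 86.6 in WT, whereas STR2, its partner in the route, differed by 0.01 between dgk1Δ and WT.

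**Figure D4:**
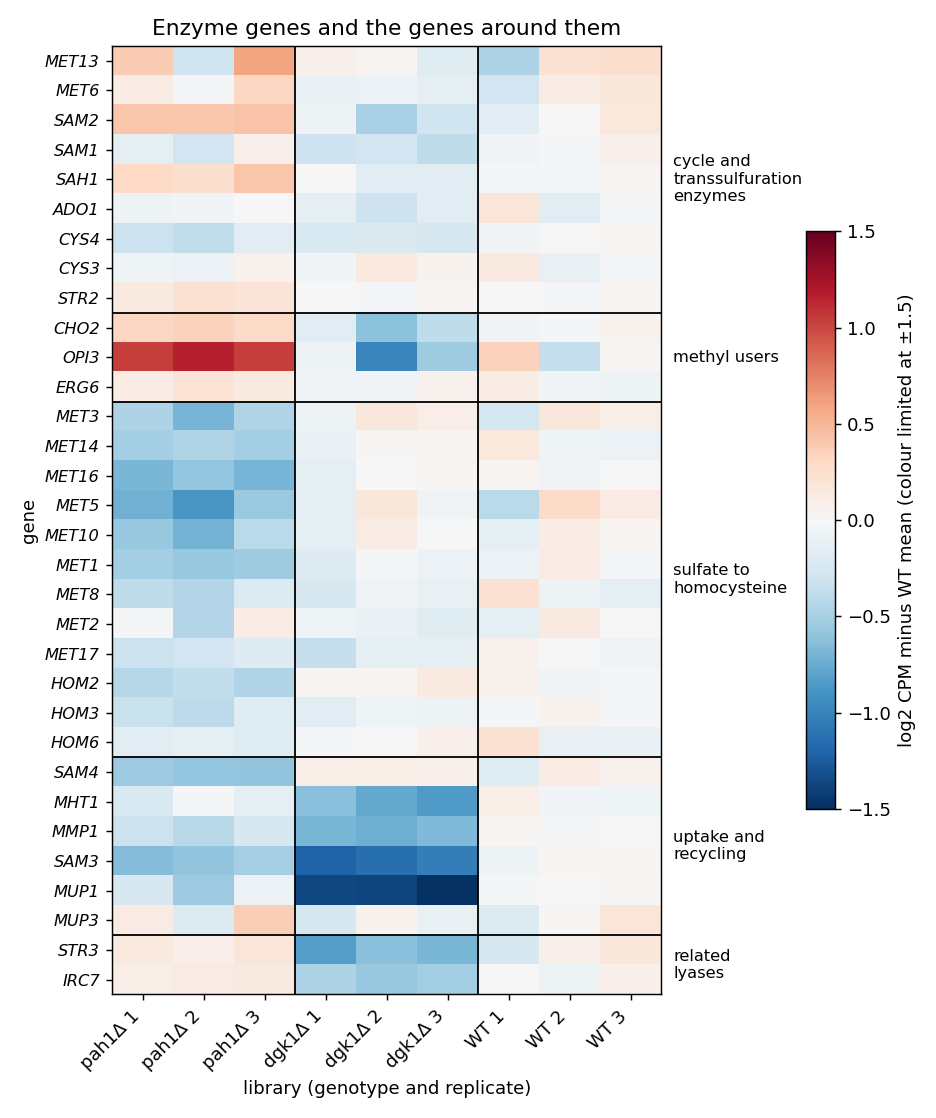
Log2 CPM minus the WT mean (colour, limited at ±1.5) of the 9 enzyme genes and 4 neighbouring groups in each library, with pah1Δ, dgk1Δ and WT from left to right. In pah1Δ SAM2, SAH1, CHO2 and OPI3 are raised and 9 of 12 genes from sulfate to homocysteine were called lower; in dgk1Δ MUP1, SAM3, MHT1, MMP1, STR3 and IRC7 were called lower.

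Further lists around the cycle are set beside the 12.6% of all genes called lower and the 16.6% called higher in pah1Δ against WT. Of 12 genes of folate supply 2 fell, a share near that background: the mitochondrial folate enzyme MIS1 (log2 fold change -0.52, SE 0.0733, edgeR adjusted p = 0.000466) and the glycine cleavage subunit GCV2 (-0.43, adjusted p = 0.0495), and GCV2 lost its call in 13 of 20 alternatives. Of 8 genes of methionine salvage and polyamines 3 fell: the S-adenosylmethionine decarboxylase SPE2 (-0.33), the spermidine synthase SPE3 (-0.39) and the salvage dioxygenase ADI1 (-0.29), the last losing its call in 14 of 20 alternatives. Of 4 genes of adenosine and adenine use 1 fell, the adenine deaminase AAH1 (-0.68, adjusted p = 0.00247), and of 2 glutathione synthesis genes 0 passed edgeR's test (1 at an unadjusted p under 0.05, and 1 called lower by DESeq2; GSH1 -0.27, adjusted p = 0.0745). Of 7 regulators MET31 (-0.62) and MET32 (-0.35) fell and MET30, the F-box protein that restrains Met4, rose by 0.23, a call lost in 12 of 20 alternatives. Between dgk1Δ and WT 0 genes of these 5 lists passed edgeR's test (5 at an unadjusted p under 0.05, 0 with DESeq2), where 1.92% of all genes passed. The largest value among them was that of MET28, at 0.66 (adjusted p = 0.132), whose gene lies on the raised right arm of chromosome IX. MET28 was called higher in 4 of 20 alternatives (both FPKM scales, length trend removed and without WT replicate 1), with adjusted p down to 0.00759. In pah1Δ against dgk1Δ 3 genes of folate supply (MIS1, GCV1 and GCV2) and SPE2 were lower and MET30 was higher by 0.27. Of all genes, 10.8% were called lower and 14.2% higher in that comparison. No other gene of these lists was called, and all but MIS1 lost the call in 6 to 10 of 20 alternatives.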

How the data were processed

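The authors deposited raw read counts for each gene and library, whole numbers that are not normalized, per the file headers, and FPKM values beside them. Per the submitters' processing notes HISAT2 2.2.1, HTSeq 0.6.1 and build R64 were used; the annotation release, strand setting and treatment of multiply mapped reads are not stated in those notes or labels. In all, 4 lines were empty and were not used. The counts were fitted with edgeR 4.0.16 under R 4.3.3: filterByExpr (6150 genes), TMM scaling and 1 robust quasi-likelihood fit over all 9 libraries, with calls at a Benjamini-Hochberg adjusted p under 0.05 over all genes tested. SE values were taken as the size of the log2 fold change over the root of its F statistic. CPM uses TMM-scaled library sizes. The fit was tested on simulated counts, drawn independently for each gene and library without a length trend. That check does not cover the length trends of these libraries. Alternatives used limma 3.58.1 and DESeq2 1.42.0, other scalings and filters, log2(FPKM + 1) and log2(FPKM + 0.1), a replicate block, a lowess length trend (span 0.3) removed, and each library left out. The 9 genes, the lists and the rule for named genes (all 9, and up to 4 called genes a list by smallest adjusted p) were chosen with earlier results of these data known; other genes named were chosen after their values were seen. Sequences are from the RefSeq genome of build R64, in which 6045 gene identifiers matched and 6033 had the same start and end.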

Additional observations from a re-analysis of the deposited data

How the results depend on the processing

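The calls of SAM2, SAH1 and CYS4 in pah1Δ against WT lay near the threshold: of the 9 genes 3 were called, 1 with the 2 groups alone, and 0 to 3 when 1 library was left out (0 without pah1Δ replicate 1, 1 without pah1Δ replicate 3). In dgk1Δ against WT 0 were called, 2 with DESeq2, 1 with the length trend removed and 0 in every fit without 1 library. In pah1Δ against dgk1Δ the 2 calls became 2 to 4 without 1 library (4 without WT replicate 1), and 1542 calls over all genes became 1024 (without dgk1Δ replicate 2) to 2326 (without WT replicate 1). The SAM2 share in dgk1Δ minus WT ranged from -0.874 to 2.18 points without 1 library. Some log2 fold changes near 0 changed sign, and the cause was not tested. In pah1Δ minus WT, library size alone and both FPKM scales gave ADO1 0.0516, 0.0547 and 0.0548 and CYS3 0.0585, 0.0584 and 0.0585; in pah1Δ minus dgk1Δ they gave CYS4 0.0108, 0.00867 and 0.00869. STR2 in dgk1Δ minus WT was -0.00711 with RLE size factors, -0.00674 with DESeq2 and -0.0217 with the length trend removed. Without 1 library the ranges were -0.123 to 0.0561 for ADO1, -0.0887 to 0.0363 for CYS3 and -0.00138 to 0.215 for MET6 in pah1Δ minus WT, and -0.0122 to 0.118 for CYS3, -0.255 to 0.0527 for MET13 and -0.0119 to 0.0223 for STR2 in dgk1Δ minus WT. The replicate numbers did not pair the libraries (correlations of same-numbered deviations over 5304 genes from -0.667 to 0.552); with a replicate block SAM2 lost its call in pah1Δ against WT (adjusted p = 0.0532), and 1448, 106 and 1218 genes were called in the 3 comparisons.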

Other observations

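The gene whose pattern over the 9 libraries was most like that of SAM2, among 5303 other genes averaging 10 CPM or more, was CHO2, which adds the first methyl group in phosphatidylcholine synthesis, and the gene most like CHO2 was SAM2. The root-mean-square difference of their centred log2 CPM was 0.0767, against 0.312 for the deviation of SAM2 from its own mean. The next gene after CHO2, chosen after its value was seen, was NEM1 (0.0837), a subunit of the phosphatase that activates Pah1. NEM1 had 67.9 ± 1.56 CPM in pah1Δ, 41.4 ± 2.23 in dgk1Δ and 48.5 ± 3.34 in WT (SD, n = 3), and rose in pah1Δ against WT by 0.49 (SE 0.081, edgeR adjusted p = 0.00127). OPI3, which adds the later methyl groups, ranked 4428th in likeness to SAM2 (0.459). Its changes were larger (1.57 against 0.69 for SAM2 in pah1Δ over dgk1Δ), so the rank does not separate a different pattern from a larger change. By mean CPM both were highest in pah1Δ and lowest in dgk1Δ (OPI3 1243, 420 and 599 in pah1Δ, dgk1Δ and WT). Within WT they differed, with OPI3 highest and SAM2 lowest in replicate 1. The difference between SAM1 and SAM2 was 0.279, and the nearest gene to SAM1 among the other 8 enzyme genes was CYS4 (0.117). The nearest genes for the remaining enzymes were SYG1 for MET6 (0.0438), SNX41 for MET13 (0.106), SCW11 for SAM1 (0.0745), EEB1 for SAH1 (0.0485), YJR111C for ADO1 (0.0534), SCS7 for CYS3 (0.0473), TPN1 for CYS4 (0.0419) and FMP25 for STR2 (0.0417). These distances are descriptions over 9 libraries that share their scaling, and they favour genes with changes of the same size.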
